A study of Tupaia belangeri with 15 samples.

Results

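The 6 genes of the platelet-derived growth factor (PDGF) system described here are the receptors PDGFRA and PDGFRB and the ligands PDGFA, PDGFB, PDGFC and PDGFD, 6 of the 83605 features counted in the tree shrew (TS) retina. They were found by gene name, and each is listed once under its own symbol. PDGFRA (TSDBGID.2414) held 7309 unique molecular identifiers (UMIs, counted RNA molecules) over all nuclei and PDGFD (TSDBGID.5073) 7392. PDGFA (TSDBGID.13719) held 6569, PDGFC (TSDBGID.17392) 5051, PDGFRB (TSDBGID.12542) 2718 and PDGFB (TSDBGID.23889) 490. Single nuclei were isolated from frozen retinas of healthy TS without any allele or treatment and sequenced on the 10x Genomics platform, with 5 retinas each of the Infancy stage (young animals in their first months), the Mature stage (adults) and the Senile stage (aged animals). By the study's methods each retina came from its own animal, sex is not given in the labels, and the senile animals came from another institute than the infant and mature ones, so source and the senile stage cannot be told apart.

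PDGF ligands are secreted as dimers and act on the paired receptor tyrosine kinases PDGFRA and PDGFRB. PDGFA and PDGFC dimers act mainly through PDGFRA, PDGFD through PDGFRB, and PDGFB binds both receptors. PDGFC and PDGFD are secreted in a latent form and are cut by proteases before they bind. Tissue plasminogen activator (PLAT), urokinase (PLAU) and matriptase (ST14) each cut PDGFC, PDGFD or both. In blood vessels, PDGFB from endothelial cells recruits pericytes, the contractile cells of the vessel wall, through PDGFRB. In the developing mouse retina, PDGFA from neurons acts on astrocytes that carry PDGFRA and migrate in from the optic nerve.

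Depth ranged from 13429873 to 58734300 UMIs per library and the number of barcodes from 4269 to 9856, with medians of 1461 to 5611 UMIs per barcode. The 7 libraries whose headers name Cell Ranger 6.1.2 had medians of 1461 to 3068 UMIs and the 8 with 7.0.1 had 2268 to 5611, and both versions occurred in every stage. Nuclei were named from marker genes that include no PDGF gene, which gave a class to 89588 of 119765 nuclei past the quality limits (74.8%). The share was 77.5% in infancy, 75.5% at maturity and 71% in the senile stage. The classes held 28427 amacrine cells (ACs), 26393 bipolar cells (BCs), 16942 cones, 7484 Müller cells, 6322 retinal ganglion cells (RGCs), 1186 astrocytes, 959 rods, 947 horizontal cells (HCs) and 751 microglia, beside 70 endothelial cells, 67 pericytes and 40 cells of the retinal pigment epithelium (RPE). The BC marker list summed to 18230 CPM (counts of a gene per 1000000 UMIs of the class) in BCs and still to between 728.6 and 2328 CPM in each of the other classes, so UMIs of a class's own genes were also found at a low level in other classes. No class was obtained from the marker lists of fibroblasts and oligodendrocyte-lineage cells.

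Where in the retina the receptors are transcribed was asked first. Among the 9 main classes, those with at least 10 nuclei in nearly every retina, PDGFRA was highest in Müller cells, the radial glia of the retina, at 57.3 CPM ± 20.0 (SD, n = 15 retinas), followed by ACs at 34.8 CPM ± 13.4. Over the retinas the lowest, median and highest PDGFRA levels were 25.5, 54.3 and 92.7 CPM in Müller cells and 16.7, 31.3 and 55.5 CPM in ACs. The difference, 0.72 ± 0.62 on the log2(CPM + 1) scale, was positive in 12 of 15 retinas (exact permutation by sign flips over retinas, 2-sided, adjusted p = 0.00586 over the 48 tests of neighbouring classes). The highest class was picked from the same values. The call was lost with a stricter naming of nuclei, where the difference was 0.417 with an adjusted permutation p of 0.106. That naming kept 15657 of 28427 AC nuclei and 6191 of 7484 Müller nuclei. In the main naming, 11.9% of AC nuclei and 4.33% of Müller nuclei lay close to the limit for being named. ACs in turn exceeded microglia, the next class, by 3.48 in 13 of 15 retinas (adjusted permutation p = 0.00293). The other main classes had means of at most 10.7 CPM.

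Astrocytes, the glia of the nerve fibre layer, held almost no PDGFRA. A total of 11 PDGFRA UMIs fell in 3 of 1186 astrocyte nuclei, and 13 of the 15 retinas had none in this class. In microglia, PDGFRA was at 0 in 10 of 15 retinas. Of the PDGFRA UMIs in named nuclei, 66.7% lay in ACs and 23.3% in the fewer Müller cells. In sums over nuclei of a class, fewer expressing nuclei and less RNA per nucleus cannot be told apart, so the counts per nucleus are given next.

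Müller cells and ACs carried PDGFRA in different ways. At least 1 PDGFRA UMI was found in 13.5% of Müller nuclei (Wilson 95% interval 12.8% to 14.3%) but in 3.89% of AC nuclei (3.67% to 4.12%). The median depth was 2270 UMIs in Müller cells and 3403 in ACs, and at 1000 UMIs per nucleus the shares were 6.12% and 2.14%. In cones, photoreceptors taken here as the background, the share was 0.921% at a median of 3325 UMIs, and 0.228% at 1000 UMIs. These intervals cover counting error only.

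Of the PDGFRA UMIs in ACs, 10.1% lay in nuclei with a single one and 40.6% in nuclei with 6 or more, up to 18 in 1 nucleus. In Müller cells 66.9% lay in nuclei with a single UMI and 0.637% in nuclei with 6 or more. Among nuclei with any PDGFRA UMI, 67.1% of those in ACs and 17.2% of those in Müller cells had at least 2. Across retinas, 1.88% to 3.47% of AC nuclei and 0.323% to 7.85% of Müller nuclei had at least 2 PDGFRA UMIs. The Müller share was above that of ACs in Mature 5 (7.85% against 1.9%) and below it in Senile 1 (0.323% against 2.71%). With all retinas together, the PDGFRA UMIs of ACs were thus concentrated in few nuclei, while most of those of Müller cells lay in nuclei with 1. The counts per nucleus were not matched for depth.

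**Figure D1:**
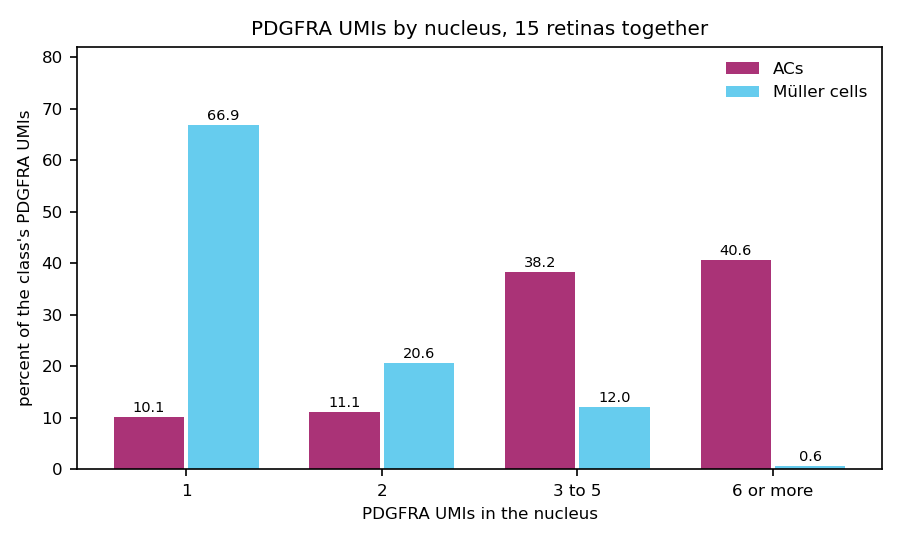
Share of all PDGFRA UMIs of a class (percent, y axis) by the number of PDGFRA UMIs in the nucleus that held them (x axis), for ACs and Müller cells. In ACs 38.2% lay in nuclei with 3 to 5 and 40.6% in nuclei with 6 or more, while in Müller cells 66.9% lay in nuclei with 1.

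The AC nuclei that carried PDGFRA were then compared with the rest by markers of AC subsets, most of them named in the study. The study also named an AC subset of these same retinas by PDGFRA. Lower PDGFRA with the markers of its other subsets is therefore not independent of that clustering. PDGFRA was lower in nuclei with a UMI of the subset marker in 7 of 9 subsets. At the p of the weakest call among the members (0.01245, unadjusted), 15.4% of all gene and subset pairs tested in ACs were lower with the marker, from 6.63% for RELN to 23.1% for CHAT. In nuclei with CHAT, the acetylcholine-synthesizing enzyme of starburst ACs, PDGFRA was 3.92 CPM ± 5.80 against 38.1 CPM ± 13.96 in ACs without it, lower in 15 of 15 retinas (exact sign-flip permutation test, adjusted p = 0.000895 over 132 tests of member and subset, the smallest p that 15 retinas can give before adjustment being 6.1e-05). It was also lower with SLC6A9, the glycine transporter of glycinergic ACs, at 16.2 against 43.8 CPM, and with FAT4, a large cadherin, at 10.1 against 39.1 CPM, each in 15 of 15 retinas (adjusted permutation p = 0.000895 for both).

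PDGFRA was likewise lower with TAC1 (the precursor of substance P), DRD2 (a dopamine receptor), NFIB (a transcription factor) and SLC17A8 (the glutamate transporter VGLUT3), with adjusted permutation p between 0.00107 and 0.0178. It was 27.6 CPM with and 35.8 CPM without RELN, the gene of reelin (adjusted permutation p = 0.0881). With GAD1, an enzyme of GABA synthesis, it was 42.8 CPM ± 27.1 and without it 34.5 CPM ± 13.5 (adjusted permutation p = 0.841), and the mean difference on the log2 scale, -0.20 ± 1.90, had the opposite sign to that of the means. SLC6A9 and GAD1 also belong to the markers that name ACs.

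Among the 742 AC nuclei with at least 2 PDGFRA UMIs, which are the PDGFRA-positive ACs by a count rule, 1.08% had a CHAT UMI, against 9.25% of AC nuclei with none. SLC6A9 was found in 14.2% against 35.7% and GAD1 in 3.23% against 1.57%. These shares are a description without a test.

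The PDGFRA level of ACs also differed between the libraries of the Cell Ranger versions. It was 46.4 CPM ± 9.33 in the 7 libraries of version 6.1.2 (32.0 to 55.5) and 24.6 CPM ± 5.92 in the 8 of version 7.0.1 (16.7 to 31.3), with no overlap, and 1.43% of the genes tested in ACs separated the versions in this way. The Müller level was 68.4 CPM ± 21.8 and 47.5 CPM ± 12.8. Müller cells exceeded ACs by 0.512 and 0.904 on the log2 scale within these sets of libraries. These sets of libraries also differed in depth, with medians of 1461 to 3068 and 2268 to 5611 UMIs per barcode. Version, depth and anything else that separates the sets cannot be told apart. The sources used here do not give the intron setting of either version, and its part was not tested.

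**Figure D2:**
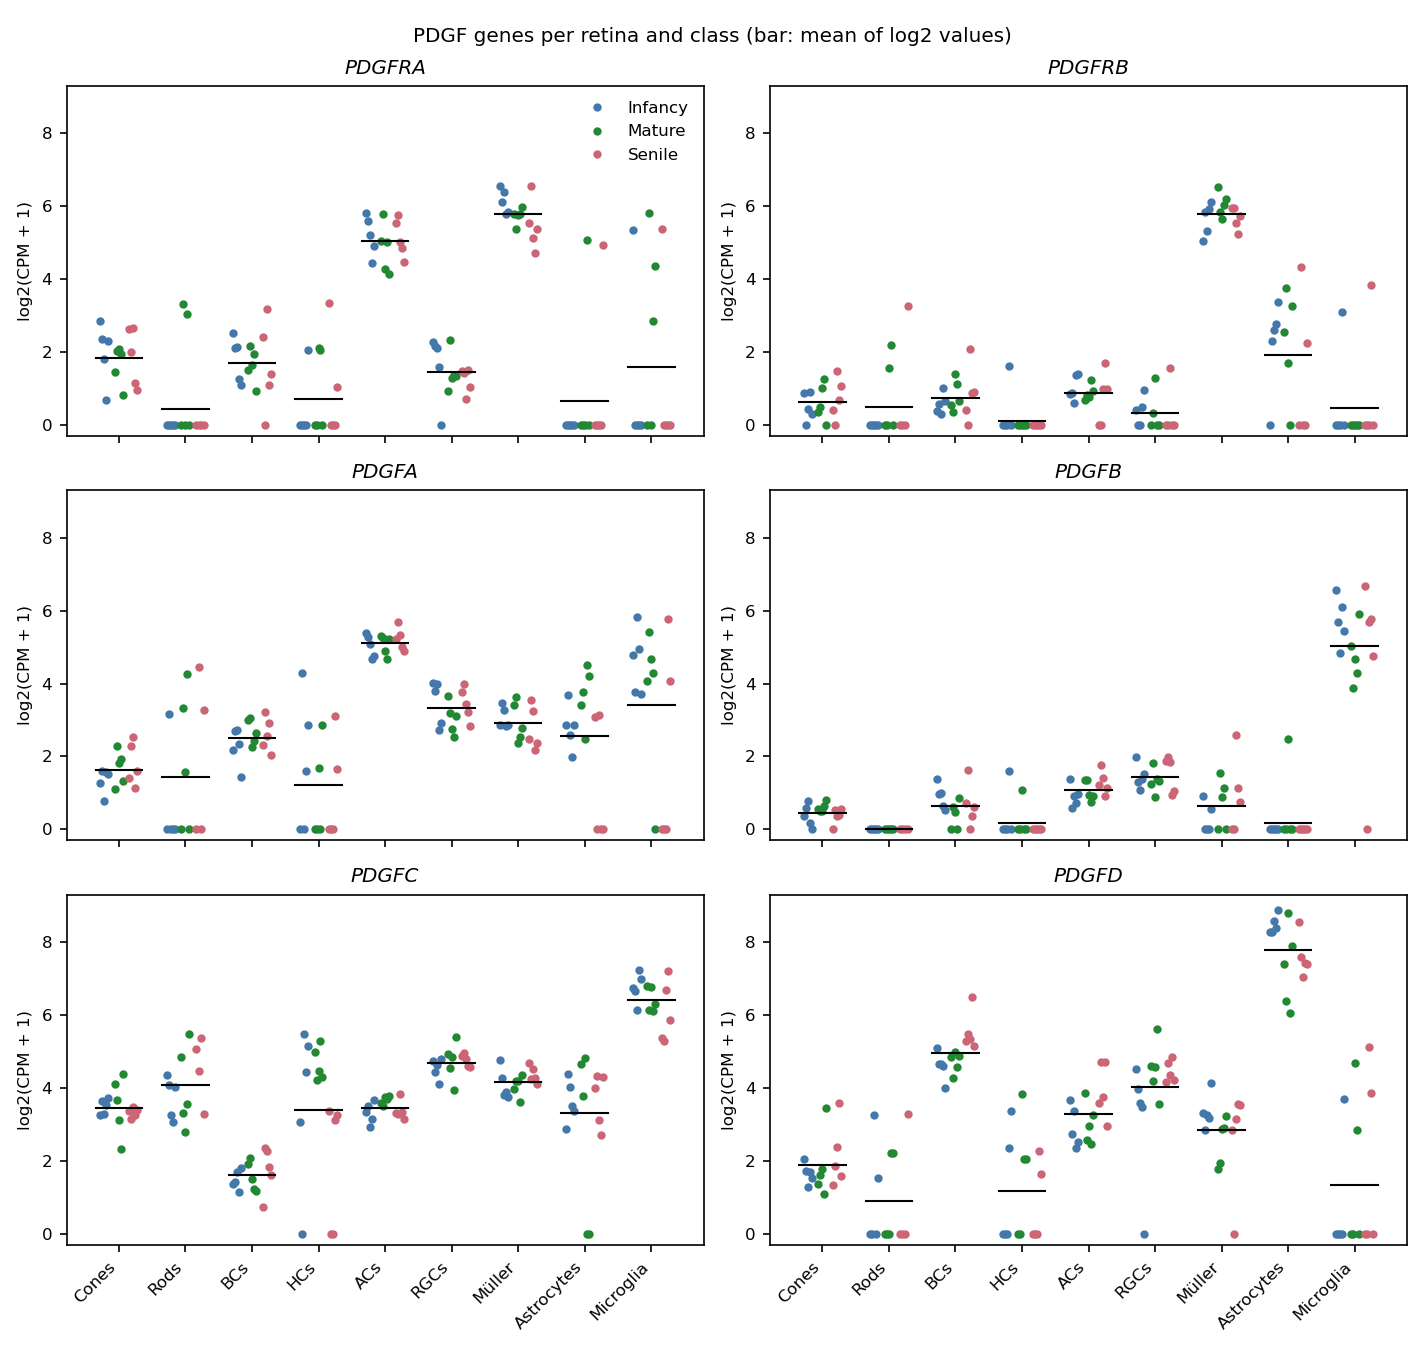
Level of each PDGF gene as log2(CPM + 1) (y axis) in each class (x axis), where a point is 1 retina coloured by stage and the bar is the mean of the log2 values. PDGFRA stood out in Müller cells and ACs, PDGFRB in Müller cells, PDGFA in ACs, PDGFB and PDGFC in microglia, and PDGFD in astrocytes. Levels are to be compared within a gene and not between genes.

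PDGFRB, among the 9 main classes, was a Müller cell gene. Its level there was 56.5 CPM ± 15.3 over 15 retinas, with the lowest, median and highest retina at 32.4, 56.9 and 92.2 CPM. Astrocytes followed at 5.04 CPM ± 5.52, and the Müller level was higher in 15 of 15 retinas by 3.87 ± 1.41 on the log2(CPM + 1) scale (exact sign-flip permutation test, adjusted p = 0.000732). The other 7 classes lay at means of at most 1.40 CPM, and none of the neighbours below astrocytes differed past the threshold. At least 1 PDGFRB UMI was found in 14.8% of Müller nuclei, and 3.93% of the UMIs lay in nuclei with 3 or more, so PDGFRB was spread thinly. In cones the share of nuclei with a PDGFRB UMI was 0.283%. Its level was 56.9 CPM in the libraries of version 6.1.2 and 56.3 CPM in those of version 7.0.1.

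In Müller nuclei with a PDGFRA UMI, PDGFRB was 68.1 CPM ± 31.1, and in those without one 55.9 CPM ± 15.6, higher in 9 of 15 (exact permutation by sign flips, p = 0.486, chosen after the data were seen). The log2 differences had a mean of 0.15 and an SD of 0.79, so a tie between the receptors within Müller nuclei was not detectable at this depth.

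Pericytes, the cells in which PDGFRB is best known, were rare in these libraries but carried it at the highest level of any named class. The 67 pericyte nuclei held 120 PDGFRB UMIs of 113007, or 1062 CPM (exact Poisson 95% interval 880.4 to 1270). The gene was found in all 12 retinas with pericyte nuclei and in 76.1% of the nuclei. In the 11 retinas with at least 3 pericyte nuclei, a minimum lowered after the data were seen, the level was 1269 CPM ± 795, from 402.7 to 3354 CPM. It exceeded that of Müller cells (55.0 CPM) in 11 of 11 retinas by 4.34 ± 1.08 on the log2 scale (exact permutation by sign flips, p = 0.000977, adjusted p = 0.00488 over 5 tests of rare classes). In 70 endothelial nuclei, which line the vessels, PDGFRB had 1 UMI.

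PDGFRA had 14 UMIs in pericytes, all in 1 nucleus of Mature 3. In the other 11 retinas with pericyte nuclei its count was 0.

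The ligands were highest in ACs (PDGFA), microglia (PDGFB and PDGFC) and astrocytes (PDGFD). PDGFA was, among the main classes, highest in ACs at 34.3 CPM ± 7.04 (24.7, 36.3 and 50.3 CPM as the lowest, median and highest retina). Microglia followed at 20.4 CPM ± 18.4, with 32 UMIs in all and 0 in 4 retinas, and then RGCs at 9.64 CPM ± 3.70. ACs exceeded microglia by 1.69 ± 2.39 on the log2(CPM + 1) scale in 11 of 15 retinas (exact sign-flip permutation test, adjusted p = 0.0423). That call was lost without the 5% of nuclei with most UMIs (adjusted p = 0.0563), with at least 30 nuclei per retina (1.14, adjusted p = 0.0973), and without any 1 of 9 retinas (Infancy 1, 2 and 5, Mature 1 and 5, Senile 1, 2, 3 and 5). The PDGFA level of ACs was 39.2 CPM ± 5.53 in the libraries of version 6.1.2 and 29.96 CPM ± 5.28 in those of version 7.0.1. ACs were above RGCs, the next class with counts in every retina, in 15 of 15 retinas.

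ACs thus had the highest PDGFA level of the main classes and, after Müller cells, the highest level of its receptor PDGFRA, but nuclei with the receptor held less of the ligand. In AC nuclei with a PDGFRA UMI, PDGFA was 15.8 CPM ± 6.78, and in those without one 35.1 CPM ± 7.26, lower in 15 of 15 retinas. This split was added after the data were seen and is a description.

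Within ACs, PDGFA was higher in nuclei with SLC17A8, at 95.3 CPM ± 29.5 against 29.8 CPM ± 8.66 in the others, a difference of 1.63 ± 0.72 (log2) found in 14 of 15 retinas (exact sign-flip permutation test, adjusted p = 0.00107). In the same nuclei PDGFRA was 15.6 against 35.9 CPM. PDGFA was lower in nuclei with CHAT (27.8 against 35.1 CPM), TAC1 (19.8 against 34.6 CPM) and NFIB (28.7 against 36 CPM), with adjusted permutation p between 0.00525 and 0.00859. The receptor and ligand thus fell together with CHAT, TAC1 and NFIB and went opposite ways with SLC17A8.

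The 40 RPE nuclei, pigmented cells behind the retina, held 17 PDGFA UMIs, or 89.7 CPM (exact Poisson 95% interval 52.3 to 143.6), in 6 of 7 retinas with such nuclei. Pericytes held 7.

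PDGFB had the fewest UMIs of the 6 genes. Among the main classes its level was highest in microglia, the resident macrophages, which held 16.7% of its UMIs in named nuclei, against 33.9% in the far more numerous ACs and 19.7% in RGCs. The microglial level was 43.9 CPM ± 28.3, from 0 in Senile 2 to 101 CPM in Senile 1, resting on 60 UMIs in 57 of 751 nuclei (7.59%, at a median of 1350 UMIs). In cones 0.159% of nuclei had a PDGFB UMI, at a median of 3325. RGCs followed at 1.81 CPM ± 0.74, and microglia were higher in 14 of 15 retinas by 3.58 ± 1.71 on the log2 scale (exact sign-flip permutation test, adjusted p = 0.00117). RGCs were above ACs (1.18 CPM), by 0.35 in 12 of 15 retinas (adjusted permutation p = 0.00732). Rods, the photoreceptors of dim light, held 0 PDGFB UMIs of 2830024.

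Endothelial nuclei held 11 PDGFB UMIs, or 71.6 CPM (exact Poisson 95% interval 35.7 to 128.1), in 7 of 14 retinas. Pericytes held 0, which allows up to 26.6 CPM, and so did RPE cells, which allows up to 15.8 CPM. Both limits are the level that 3 UMIs would give, cover counting error only, and lie below the upper bounds of the exact Poisson 95% interval, 32.6 and 19.5 CPM. Over 9 retinas the endothelial level (64.3 CPM ± 95.1) and that of microglia (53.9 CPM) did not differ past the threshold, and on the log2 scale the endothelial level differed by -2.08 ± 4.16, opposite in sign to the means (exact sign-flip permutation test, adjusted p = 0.205).

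PDGFC was highest in microglia at 91.4 CPM ± 35.1 (37.9, 100.2 and 150.4 CPM as the lowest, median and highest retina), above RGCs in 15 of 15 retinas by 1.75 ± 0.76 on the log2 scale (exact sign-flip permutation test, adjusted p = 0.000732). RGCs had 25.2 CPM ± 6.28, rods 19.0 CPM ± 12.5, Müller cells 17.5 CPM ± 4.30 and HCs 17.2 CPM ± 14.2. RGCs and rods differed at an adjusted permutation p of 0.0469, while the neighbours from rods down to ACs (10.1 CPM ± 2.02) did not differ past the threshold. BCs were lowest at 2.19 CPM ± 0.99, under ACs in 15 of 15 retinas by 1.84 ± 0.50 (adjusted permutation p = 0.000732).

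PDGFC also followed subsets. Among ACs it was higher in nuclei with SLC6A9 (14.1 against 8.08 CPM, 14 of 15 retinas, adjusted permutation p = 0.00179), and among RGCs in nuclei with RUNX1, a transcription factor (40.9 CPM ± 9.75 against 23.4 CPM ± 3.46, 13 of 13 retinas, adjusted permutation p = 0.00179). Among RGCs with SPP1, the gene of osteopontin, it was lower (17.3 against 26.2 CPM, adjusted permutation p = 0.00859). PDGFC in pericytes was 0 UMIs, which allows up to 26.6 CPM (the level of 3 UMIs).

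PDGFD was highest in astrocytes among the main classes. Its level there was 255 CPM ± 128, with the lowest, median and highest retina at 65.9, 234.6 and 466.3 CPM, and at least 1 UMI was found in 39% of astrocyte nuclei (Wilson 95% interval 36.2% to 41.8%), against 0.885% of cones. BCs followed at 32.9 CPM ± 17.6, RGCs at 19.1 CPM ± 10.7, ACs at 10.3 CPM ± 6.75 and Müller cells at 7.33 CPM ± 3.91. Astrocytes were above BCs in 15 of 15 retinas by 2.84 ± 1.08 on the log2 scale (exact sign-flip permutation test, adjusted p = 0.000732), and BCs above RGCs in 14 of 15 by 0.93 ± 1.06 (adjusted permutation p = 0.00749). PDGFRB, the receptor of PDGFD, was 5.04 CPM in astrocytes.

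Endothelial nuclei held 32 PDGFD UMIs, or 208.3 CPM (exact Poisson 95% interval 142.5 to 294). Over 9 retinas their mean was 392 CPM ± 329 and that of astrocytes 256 CPM (exact sign-flip permutation test, adjusted p = 0.644), a comparison too variable to order these classes. RPE nuclei held 13 PDGFD UMIs, in 2 of 7 retinas.

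In BCs the PDGFD level differed between markers that the study assigns to OFF subsets, the cells that respond to a decrease in light. It was higher with GRIK1 and DSCAM and lower with ERBB4. Nuclei with a UMI of GRIK1, a kainate receptor counted here under its copy GRIK1li1, held 2336 of 2360 PDGFD UMIs, at 42.1 CPM ± 20.9 against 1.30 CPM ± 1.10 without it. With DSCAM, a cell adhesion molecule, the level was 57.0 CPM ± 25.1 against 2.29 CPM ± 2.07. Both differences (4.28 ± 0.90 and 4.22 ± 0.46, log2) were found in 15 of 15 retinas (exact sign-flip permutation test, adjusted p = 0.000895). GRIK1 was found in 19253 and DSCAM in 12556 of the 26393 BC nuclei. The study also lists GRIK1 among its markers of all BCs. A UMI of GRIK1 or DSCAM does not by itself mark an OFF cell.

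With ISL1, the ON marker, PDGFD was 11.7 against 43.7 CPM, and with GRM6, the glutamate receptor of ON BCs, 12 against 34.2 CPM. ERBB4 nuclei, an OFF subset by the study's naming, were also lower, at 17.3 against 40.0 CPM. These 3 were lower in every retina tested (adjusted permutation p = 0.000895, 0.00107 and 0.000895). GRIK1 and GRM6 belong to the markers that name BCs, and no PDGF gene does.

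Among RGCs, the output neurons, PDGFD lay in nuclei with SLIT2, an axon guidance gene, at 40.9 CPM ± 24.3 against 4.92 CPM ± 4.12, in 14 of 15 retinas (exact sign-flip permutation test, adjusted p = 0.00107). It was lower with FOXP2 (2.53 against 23.7 CPM) and with RUNX1 (4.11 against 18.6 CPM), with adjusted permutation p = 0.00179 and 0.00322. Of its RGC UMIs, 56.4% lay in nuclei with 3 or more. PDGFC and PDGFD thus went opposite ways with RUNX1 among RGCs.

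**Figure D3:**
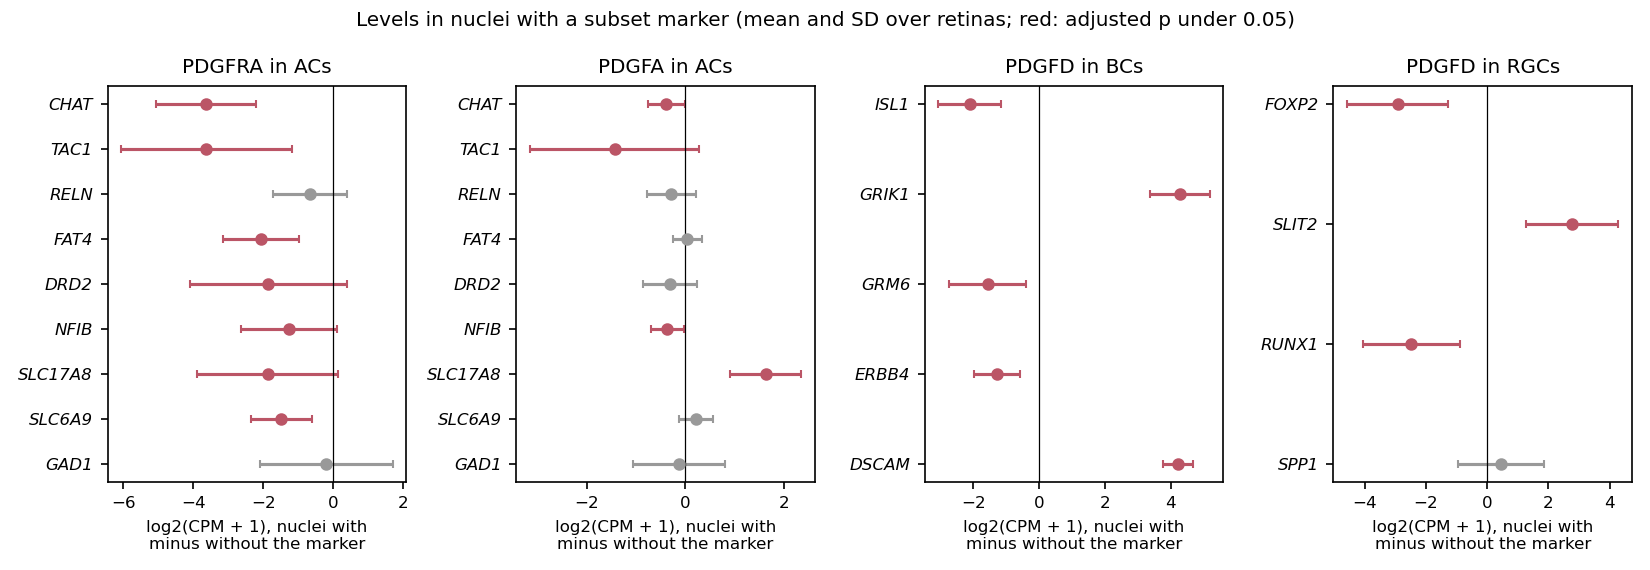
Difference in log2(CPM + 1) between nuclei with and without a UMI of each subset marker (mean ± SD over retinas), for PDGFRA and PDGFA in ACs and PDGFD in BCs and RGCs. Red points passed an adjusted permutation p of 0.05. PDGFRA was lower with 7 of 9 AC markers, PDGFA rose with SLC17A8, and PDGFD rose with GRIK1 and DSCAM in BCs and with SLIT2 in RGCs.

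Of the 132 tests of member and subset, 40 passed the threshold, 15 higher and 25 lower with the marker. PDGFRA had 8 of the 40, all lower, and PDGFRB 3. Of the 76 tests in which the gene had also passed edgeR's filter on low counts in the class, 13 were higher and 19 lower, whereas 6.62% and 12.8% of all gene and subset pairs past that filter were higher and lower at an unadjusted p of 0.01245 or less. In BCs with ERBB4, PDGFA was 8.34 against 3.55 CPM and PDGFC 4.28 against 1.31 CPM, but both calls were lost without the 5% of nuclei with most UMIs (adjusted permutation p = 0.310 and 0.0899). None of the 12 tests in HCs passed, and the 6 by ISL1 rested on 6 retinas, whose smallest exact permutation p of 0.0312 lies above the largest p that passed.

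The other genes of the pathway, a list of 59, gave context for these levels. Among the main classes, the relatives of the PDGF receptors KIT (357 CPM ± 88.4), KDR (406 CPM ± 132) and FLT1 (301 CPM ± 79.0) had their highest level in Müller cells, as did both PDGF receptors. KDR and FLT1 belong to the markers that name endothelial cells, a class outside this ranking. CSF1R, the receptor for colony-stimulating factor, had 1087 CPM ± 544 in microglia. It is one of the markers that name microglia, so a high level there follows from the naming. PLAU had 39.9 CPM ± 25.01 and PLAT 21.9 CPM ± 11.9 in astrocytes, their highest main class and that of PDGFD. ST14 had 0 UMIs. Over the list the highest main class was microglia for 16 genes, Müller cells, cones and rods for 7 each, BCs and astrocytes for 4 each, ACs for 3, and HCs and RGCs for 2 each, leaving out 7 genes under 100 UMIs, of which 3 had none. Microglia had the fewest UMIs of the main classes (1480071). The same counts were not made over all genes, so no lean of the list to a class can be read from them. The highest class of each was picked from its values and not tested, and the genes named here were chosen for their roles with the values known.

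Whether the 6 genes change between stages was tested with edgeR's quasi-likelihood test on UMIs summed per retina and class, with Cell Ranger version in the model and Benjamini-Hochberg adjustment over all genes of the class. Of 54 member and class pairs, 21 passed the filter on low counts, covering 5 of the 6 genes. PDGFB passed in no class and PDGFRB only in Müller cells. No pair passed an adjusted p of 0.05 between senile and infancy, mature and infancy, or senile and mature, whereas 1.18%, 0.816% and 0.0123% of all gene and class pairs tested did. At an unadjusted p of 0.05, 4, 2 and 2 of the 21 pairs passed, against 8.68%, 10.4% and 9.09% of all pairs tested. DESeq2 called 0 of the 21 pairs in each contrast, against 1.96%, 1.83% and 0.36% of all pairs. The median log2 fold change of the 21 pairs was 0.11, 0.10 and 0.09, against medians of all genes between -0.04 and 0.03 in the single classes. In simulated data of this design, edgeR found from 81% (ACs and Müller cells) to 93% (cones and astrocytes) of 4-fold changes between senile and infancy, but 29% (microglia) to 46% (RGCs) of 2-fold changes. The changed genes were drawn at random from all genes past the filter, and no version effect was simulated. These rates are therefore not those of the PDGF genes, of which none passed the filter in microglia.

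**Figure D4:**
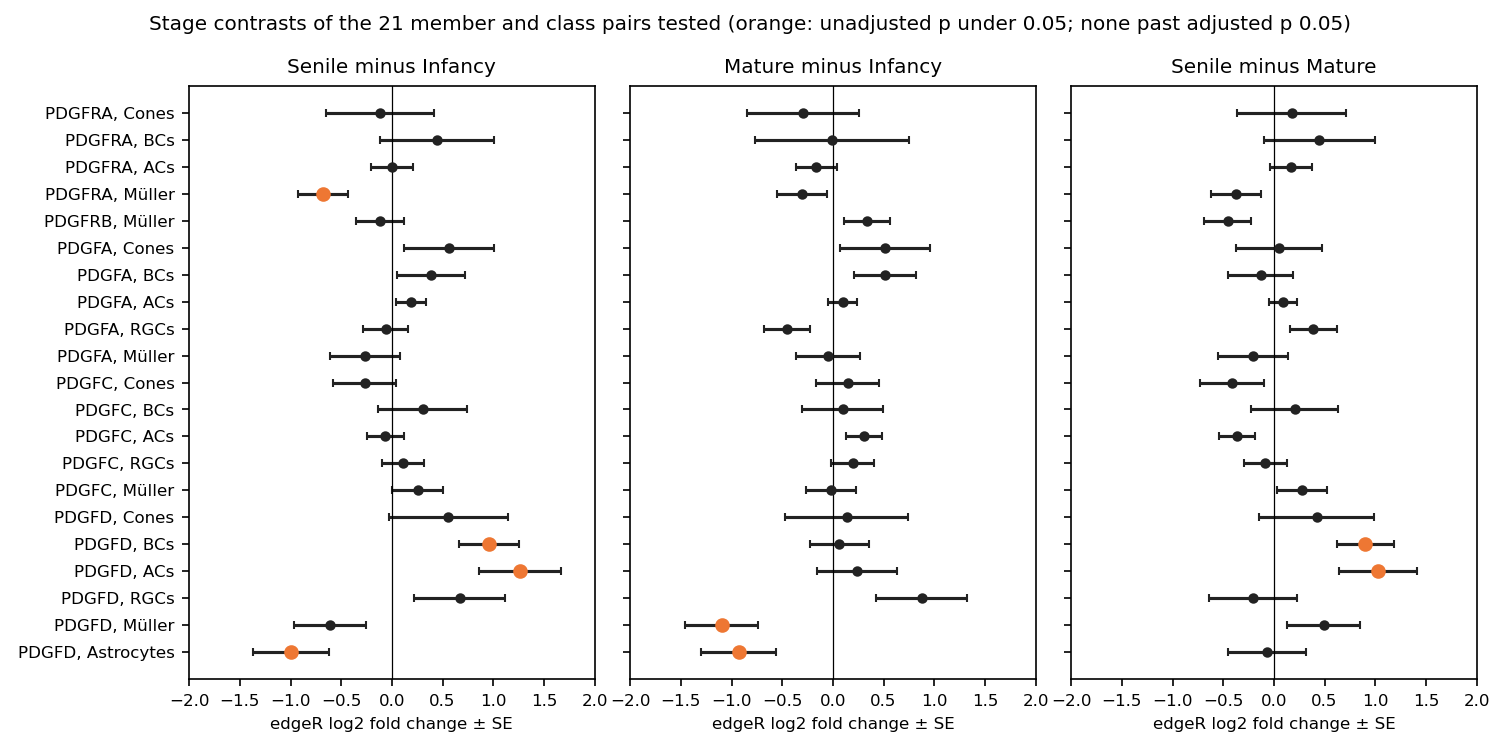
edgeR log2 fold change ± SE (x axis) of the 21 member and class pairs tested (y axis) for each contrast of stages. Orange points have an unadjusted p under 0.05, no pair passed after adjustment, and the largest differences were those of PDGFD.

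PDGFD in BCs had the lowest unadjusted p of any member between senile and infancy. The retinas held 33.4, 24.2, 24.3, 23.3 and 15.1 CPM in infancy, 27.7, 18.2, 30.8, 23.0 and 28.4 CPM at maturity and 37.8, 43.4, 39.8, 89.5 and 34.6 CPM in the senile stage. Every senile retina was above every infant and every mature retina, and Senile 4 was far above the others. Such separation was found for 2.08% of the genes tested in BCs against infancy and for 0.746% against the mature stage. The edgeR log2 fold change was 0.96 (SE 0.30) against infancy (edgeR, adjusted p = 0.192) and 0.90 (SE 0.28) against the mature stage (adjusted p = 0.295).

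Without Senile 4 the log2 fold change of PDGFD in BCs was 0.61 against infancy (edgeR adjusted p = 0.341) and 0.48 against the mature stage (edgeR adjusted p = 0.38). The exact permutation p over 5 against 5 retinas was 0.00794 for each contrast, the smallest this design allows, and 0.429 after adjustment over the 162 tests of member, class and contrast. Within the libraries of version 6.1.2 the senile minus infancy difference was 0.568 and within those of 7.0.1 it was 1.36 on the log2(CPM + 1) scale.

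Beside these levels stand the shares among BCs of the nuclei with DSCAM and with GRIK1, the markers with higher PDGFD. A UMI of either does not by itself mark an OFF cell, so these are not shares of OFF cells. ERBB4, a marker of an OFF subset by the study's naming and with lower PDGFD, was not split by stage. Nuclei with a DSCAM UMI made up 47.3%, 46.1% and 50.8% of BCs in infancy, the mature stage and the senile stage, and PDGFD in them was 43.8, 47.7 and 79.6 CPM. In nuclei with GRIK1 it was 32.1, 32.4 and 61.9 CPM, at shares of 72.2%, 73.8% and 73.7%. These subsets were added after the BC values had been seen. Exact permutation tests between stages gave adjusted p from 0.0159 to 0.0357 for the senile contrasts. For mature against infancy they gave 0.648 (DSCAM) and 0.778 (GRIK1). The adjustment covered these subset tests only and the choice followed the data, so they are not counted as calls.

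The other PDGFD differences had both signs and did not pass the threshold. In ACs, the senile retinas held 10.99, 24.97, 12.3, 25.2 and 6.75 CPM, and the infant retinas 11.8, 5.64, 9.36, 4.07 and 4.74 CPM, which overlap (edgeR log2 fold change 1.26, SE 0.41, adjusted p = 0.261). In astrocytes, infancy held 309.2, 306.4, 380.3, 334.3 and 466.3 CPM, the mature stage 168.9, 81.8, 445.5, 65.9 and 234.6 CPM and the senile stage 373.4, 191.5, 131.4, 170 and 167.6 CPM. Most older retinas lay below all infant ones, but Mature 3 and Senile 1 did not. The log2 fold change in astrocytes was -0.99 (SE 0.37, edgeR adjusted p = 0.405) for senile minus infancy and -0.93 (SE 0.37, edgeR adjusted p = 0.446) for mature minus infancy. Without Mature 3 the latter was -1.48 with an edgeR adjusted p of 0.0432, so 1 retina decided that call. In Müller cells PDGFD was 9.64 CPM ± 3.94 in infancy and 5.29 CPM ± 2.57 in the mature stage (log2 fold change -1.10, SE 0.36, edgeR adjusted p = 0.317). In RGCs PDGFD was 11.6 CPM ± 8.01 in infancy, 24.4 CPM ± 14.1 at maturity and 21.2 CPM ± 4.69 in the senile stage (edgeR adjusted p of 0.603 or more).

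Without the filter on low counts, edgeR called PDGFD in ACs, BCs and astrocytes between senile and infancy (log2 fold changes 1.19, 0.88 and -1.12, adjusted p = 0.00145, 0.00754 and 0.0281). Between senile and mature it called ACs and BCs (0.95 and 0.82, adjusted p = 0.0273 and 0.0166). These were 3 and 2 of 53 pairs, with 0 between mature and infancy, against 1.04%, 0.614% and 1.07% of all pairs then tested.

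**Figure D5:**
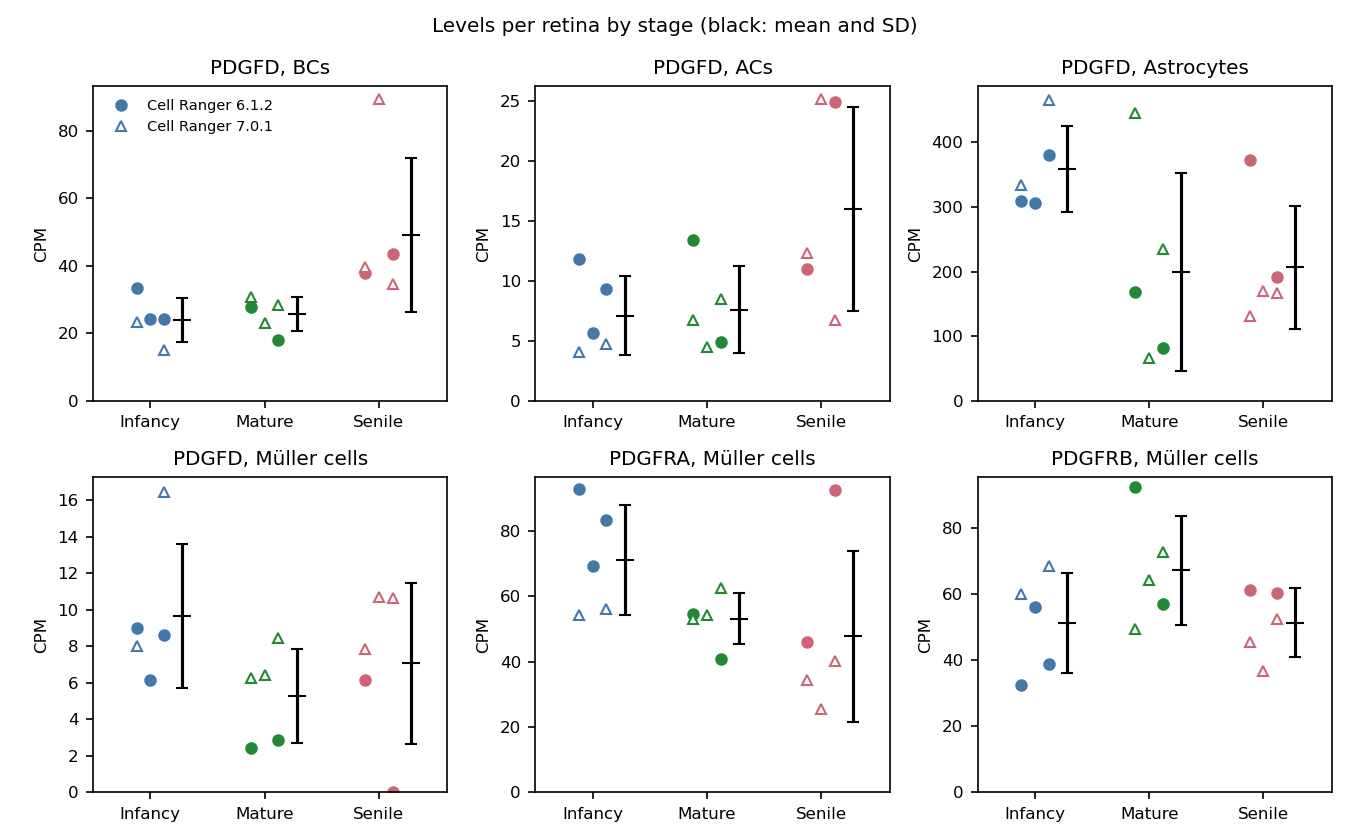
Level in CPM (y axis) per retina and stage (x axis) of PDGFD in BCs, ACs, astrocytes and Müller cells and of PDGFRA and PDGFRB in Müller cells, with the mean ± SD in black. Circles are libraries of Cell Ranger 6.1.2 and open triangles those of 7.0.1. The 5 senile retinas lay above all others for PDGFD in BCs, with Senile 4 at 89.5 CPM, and stages overlapped elsewhere.

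Among the receptors, PDGFRA in Müller cells was 71.1 CPM ± 16.8 in infancy, 53.1 CPM ± 7.83 at maturity and 47.7 CPM ± 26.2 in the senile stage. The infant retinas held 92.7, 69.1, 83.4, 54.3 and 56.0 CPM and the senile ones 45.9, 92.4, 34.2, 25.5 and 40.2 CPM, so 4 of 5 senile retinas lay below every infant one and Senile 2 was near the top. The Senile 2 value rests on 26 PDGFRA UMIs of 281254, the smallest sum of Müller cells in any retina. The senile minus infancy log2 fold change was -0.68 (SE 0.25, edgeR adjusted p = 0.44), and without Senile 2 it was -0.96 with an edgeR adjusted p of 0.0588. PDGFRB in Müller cells was 51.2 CPM ± 15.1, 67.1 CPM ± 16.5 and 51.3 CPM ± 10.4 in the same order (edgeR adjusted p of 0.592 or more). Its senile minus infancy difference was 0.547 within version 6.1.2 and -0.518 within 7.0.1 on the log2(CPM + 1) scale, and the senile minus mature difference of PDGFRA was 0.458 and -0.77. PDGFRA in ACs was 37.7 CPM ± 13.8, 30.6 CPM ± 15.2 and 35.97 CPM ± 13.4, with edgeR log2 fold changes within ±0.17 and SEs of 0.20 to 0.21, and PDGFA in ACs was 32.5 CPM ± 7.11, 33.1 CPM ± 6.05 and 37.1 CPM ± 8.40.

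For microglia, the main class where PDGFB and PDGFC were highest, the counts were too low for edgeR's filter. PDGFC there was 110.4 CPM ± 30.4 in infancy, 86.7 CPM ± 20.8 at maturity and 77.0 CPM ± 47.0 in the senile stage, and PDGFB 56.1 CPM ± 25.2, 29.4 CPM ± 17.7 and 46.3 CPM ± 37.4. No exact permutation p of these was under 0.0714.

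PDGFC in HCs, also under the filter, was 25.3 CPM ± 8.79 at maturity and 5.08 CPM ± 4.67 in the senile stage, on 81 UMIs in all stages. The mature retinas held 30.9, 17.7, 20.9, 37.9 and 18.8 CPM and the senile ones 9.22, 0, 0, 7.66 and 8.51 CPM, with no overlap. These values rest on 6, 2, 19, 12 and 6 UMIs in the mature retinas and 1, 0, 0, 2 and 8 in the senile ones. The values of 0 came from HC sums of only 31797 (Senile 2) and 77953 (Senile 3) UMIs, too few to tell a low level from 0. Such a separation was found for 0.422% of the genes with at least as many UMIs in HCs. The exact permutation p was 0.00794, and 0.429 after adjustment over the 162 tests.

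Of the 59 pathway genes, 48 passed the filter in at least 1 class, as 273 of 531 gene and class pairs. edgeR called 0 of them in each of the 3 contrasts, with the lowest adjusted p at 0.0672, 0.108 and 0.113, and 21, 26 and 33 pairs passed an unadjusted p of 0.05, at which 8.68%, 10.4% and 9.09% of all pairs passed. DESeq2 called 3 (senile against infancy), 4 (mature against infancy) and 3 (senile against mature), against 1.96%, 1.83% and 0.36% of all pairs. Between senile and mature these were NRP1, a co-receptor for several growth factors, in Müller cells (log2 fold change -1.27, DESeq2 adjusted p = 0.000455) and ACs (-0.56, DESeq2 adjusted p = 0.0156), and PIK3CA, a catalytic subunit of phosphoinositide 3-kinase, in cones (-0.46, DESeq2 adjusted p = 0.00353).

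Between senile and infancy DESeq2 called NRP1 (-0.93) and FLT3, a relative of the PDGF receptors (1.03), in Müller cells and EGR1, an immediate early gene, in cones (-2.45). Between mature and infancy it called STAT5A, a transcription factor, in ACs (0.71), FLT3 in BCs (0.72), EGR1 in cones (-2.52) and PIK3CA in cones (0.32). The median log2 fold change of the list was 0.01, 0.06 and -0.03. These named pairs come from the alternative tool, since the main test called none.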

How the data were processed

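Single-nucleus 3′ RNA sequencing of 15 TS retinas was analysed from the deposited matrices of UMI counts per gene and barcode, which the authors made with Cell Ranger on the TS_3.0 genome. Matrix headers name version 6.1.2 for 7 libraries and 7.0.1 for 8, while the submitters' processing notes name 5.0.1 and 7.0.1, and the handling of intron reads is not given in the sources used here. No genome of that build was used, so no sequence or coordinate is printed.

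Quality limits were over 200 genes, below 6000 genes, and a mitochondrial share of UMIs below 5%. Each was named by the likelihood of its detected markers under each class, with a log-likelihood lead of at least 3 and at least 2 markers detected. No doublet caller was run, and 2981 nuclei (2.49%) with markers of different classes were left out. A class in a retina needed 10 nuclei. CPM are UMIs of a gene per 1000000 UMIs of the class. Tests between classes and subsets used log2(CPM + 1) and a 2-sided exact sign-flip permutation over retinas. Stages were compared with edgeR 4.0.16 on UMI sums (quasi-likelihood test, stage and Cell Ranger version as terms, filter on low counts), with DESeq2 1.42.0 as an alternative (R 4.3.3, Python 3.11.15). Adjusted p-values are by Benjamini-Hochberg, and those printed without the word adjusted are raw. Scripts were tested on simulated data.

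All 6 members are named in every class. Pathway pairs of gene and class were to be named if past an adjusted p of 0.05, and per member the 3 genes most alike in pattern are named. The members, lists and markers were chosen with earlier results of these data known. Stage and tissue come from the labels. Alternatives tried were another normalization, pseudocount, count filter, naming rule and minimum of nuclei, removal of the 5% of nuclei with most UMIs, subsets by Cell Ranger version, a replicate block and each retina left out.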

Additional observations from a re-analysis of the deposited data

Results flagged for a closer look

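A retina stood far from the other 4 of its stage in 6 of 69 groups of 5 retinas examined by Dixon's criterion, which chance alone meets in about 1 in 20 groups. These were PDGFC in ACs of Senile 3 (13.3 CPM), PDGFD in cones of Mature 5 (9.87 CPM) and Senile 4 (10.9 CPM), PDGFD in BCs of Senile 4 (89.5 CPM), PDGFD in Müller cells of Infancy 5 (16.4 CPM) and PDGFD in astrocytes of Senile 1 (373.4 CPM). Senile 4 was thus high for PDGFD in both cones and BCs.

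Signal was also found outside the features and nuclei compared above, over the limit that a count of 0 allows. Antisense features are annotated at some of these genes. PDGFB-AS-1 had its highest mean in rods at 53.7 CPM, where PDGFB had none, PDGFD-AS-1 in astrocytes at 10.2 CPM and PDGFA-AS-3 in microglia at 7.37 CPM. Whether the counting used strand is not given in the sources used here, so reads of a gene and its antisense feature may not be told apart. In the 30177 nuclei without a class, PDGFRA had 17.2 CPM, PDGFRB 8.92 CPM, PDGFA 14.8 CPM, PDGFB 1.1 CPM, PDGFC 9.94 CPM and PDGFD 14.7 CPM.

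Effects of stage were compared between classes for each member in 123 tests by exact permutation. None passed an adjusted p of 0.05, the lowest being 0.312, and 18 had an unadjusted p under 0.05. The share over all genes was not computed for these tests, so the 18 have no background to be read against.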

How the results depend on the processing

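No call named here changed direction under an alternative. Of the 63 stage differences of member and class that edgeR tested, none past the threshold, 27 had opposite signs within the libraries of version 6.1.2 and of 7.0.1, and 0 of these 27 had an unadjusted edgeR p under 0.05. The members called between stages in a whole class stayed at 0 except without the filter on low counts (3 between senile and infancy, 2 between senile and mature). Leaving out 1 retina gave 0 to 0 for both senile contrasts and 0 to 1 for mature against infancy. For the pathway genes, called at 0, DESeq2 gave 3, 4 and 3 (senile against infancy, mature against infancy, senile against mature), no filter 6, 3 and 4, the stricter naming 3 for senile against infancy and version 6.1.2 alone 1 for mature against infancy. Leaving out 1 retina gave 0 to 2, 0 to 1 and 0 to 0. The 2 and the 1 came with FLT3 in Müller cells (without Mature 3, Mature 4 or Senile 3), PIK3R1 in cones (without Mature 2 or Senile 3) and MAP2K1 in cones (without Infancy 5). The causes were not tested.

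Between the highest class and the next, the log2 difference was 0.417 for PDGFRA with the stricter naming, and for PDGFA 1.65 without the 5% of nuclei with most UMIs and 1.14 with at least 30 nuclei, none past the threshold. Within version 6.1.2 and within 7.0.1, the differences were 0.512 and 0.904 for PDGFRA, 3.56 and 4.13 for PDGFRB, 1.91 and 1.5 for PDGFA, 3.06 and 4.03 for PDGFB, 1.43 and 2.02 for PDGFC and 2.97 and 2.73 for PDGFD, and subset calls numbered 0 and 0. With 7 and 8 retinas the smallest exact permutation p is 0.0156 and 0.00781, and a call at that value needs 40 of 126 and 21 of 132 tests to reach it. It was reached by 29 and 13, so these counts say little about stability. Leaving out 1 retina gave 0.641 to 0.803 for PDGFRA, 3.71 to 4.03 for PDGFRB, 1.41 to 1.87 for PDGFA, 3.49 to 3.97 for PDGFB, 1.65 to 1.85 for PDGFC, 2.69 to 2.97 for PDGFD and 38 to 42 subset calls.

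With the replicate number as a block, edgeR called 0 members in each contrast, and 710, 408 and 3 of all gene and class pairs in place of 1052, 730 and 11. Deviations of same-numbered retinas correlated with a median r of 0.285 (-0.461 to 0.616, 62 of 75 over 0.1), against -0.189 for other numbers (113 of 300 over 0.1), and 21 of 75 correlated best with their own number. The numbers go in part with the Cell Ranger version, since retinas numbered 1 and 2 were all of 6.1.2 and those numbered 4 and 5 all of 7.0.1. The part of the version in these correlations was not tested. No source names a shared litter or batch for the numbers and not every pair was over 0.1. The block was therefore not used in the main test, which holds the version as a term. Within version 6.1.2 alone, 1102, 843 and 37 of all pairs were called, within 7.0.1 alone 324, 87 and 0, and without the version term 791, 457 and 3. Without the filter the counts were 3997, 4122 and 2363, and with DESeq2 1755, 1636 and 322. The low counts of PDGFB, and of all members in the rare classes, limit what can be seen of their stage differences.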

Other observations

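The genes whose pattern over 134 sums of class and retina was most like that of each member are given by Pearson's r of log2(CPM + 1) among 10342 genes, as a description, since sums of a retina share their library and depth. For PDGFRB these were TM4SF18 (0.845), ABHD12B (0.844) and C1ORF87 (0.826), and for PDGFB GIMAP4 (0.911), TMEM154 (0.903) and ALOX5 (0.902). PDGFD was closest to ROS1 (0.785), SEMA3C (0.781) and MAOA (0.771). The values were lower for PDGFRA with LUZP2 (0.683), FREM1 (0.682) and C10ORF105 (0.677), for PDGFC with ITPR2 (0.67), MGMT (0.657) and WNK1 (0.648), and for PDGFA with KCNIP4 (0.645), DTNBP1 (0.617) and SLC8A1 (0.614).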
